A study of Mus musculus with 30 samples.

Results

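The step from T1 to T2 cells was compared between the multipotent progenitors MPP4 and MPP3 of 24-month-old mice. For every gene the change from T1 to T2 in MPP3 was subtracted from the change from T1 to T2 in MPP4, on the log2(TPM + 1) scale, and the result is called the difference of steps. TPM is the usual unit of transcript abundance, scaled for transcript length and to the same total in every library. A positive difference of steps means that T2 stood higher against T1 in MPP4 than it did in MPP3, and a negative one the reverse. The comparison used 12 of the 30 libraries of the series, 3 in each of 4 groups. A gene was tested where it reached 1 TPM in at least 3 of the 12 libraries, which 11897 of the 24421 listed genes did.

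All 4 groups carried the genotype label WTiMOS and came from bone marrow of mice aged 24 months, and the cells were sorted by flow cytometry. The groups were MPP3 T1, MPP3 T2, MPP4 T1 and MPP4 T2. The same 4 groups of WTiMOS mice aged 3 months, 12 libraries, entered the comparison of ages, and KOiMOS MPP3 T1 and T2 of 3 months entered only an alternative fit over all 30 libraries. The series was set up to study Bcl11a in these progenitors, including its overexpression in wild-type MPP3. The labels do not say which marker or allele separates T1 from T2 cells, whether T1 and T2 came from the same mice, or whether the 3 libraries of a group came from separate animals. The p-values therefore measure spread from library to library only, and that spread may be technical. MPP3 and MPP4 values were deposited in separate tables, and each step was taken within 1 table.

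Multipotent progenitors stand below the blood stem cell and have lost long-term self-renewal. MPP3 cells are biased towards granulocytes and monocytes, and MPP4 cells, which carry the receptor Flt3, towards lymphocytes. Bcl11a is a zinc-finger repressor needed for lymphoid development and for silencing fetal globin genes.

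The libraries held 10868 to 11498 genes at 1 TPM or more, and read depth is unknown. Libraries of the same group correlated at 0.983 to 0.993 over genes on the log2 scale, and no pair held identical values. Flt3, Dntt and Elane, markers of the labelled cell types, stood where the labels place them in both T1 and T2. Flt3 lay at 106 to 202 TPM in the 6 MPP4 libraries and at 19.5 to 30.4 TPM in the 6 MPP3 libraries. Dntt, the polymerase that adds bases at immunoglobulin joins, lay at 613 to 751 TPM in MPP4 and 48.5 to 95.3 TPM in MPP3. Elane, the neutrophil elastase of primary granules, lay at 10.8 to 57.4 TPM in MPP4 and at 228 to 3900 TPM in MPP3. Not every lymphoid marker stood so. Summed over the B-lineage list, levels were 623 to 706 TPM in MPP3 T1 and 178 to 185 TPM in MPP3 T2. The MPP4 sums were lower, at 118 to 144 TPM. These levels come from separate tables, each scaled to the same total per library.

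Transcripts of the Y chromosome separated T1 from T2 in both cell types. Summed over Uty, Kdm5d, Ddx3y and Eif2s3y, the level was 0 in all MPP3 T1 libraries and 54.0 to 76.8 TPM in MPP3 T2. In MPP4 it was 0.0607 to 0.184 TPM in T1 and 158 to 169 TPM in T2. Xist averaged 69.2 ± 7.36 TPM (SD, n = 3) in MPP3 T1 and 20.4 TPM in MPP3 T2, against 67.9 TPM in MPP4 T1 and 29.3 TPM in MPP4 T2. All 4 Y-linked genes had a called difference of steps, from 0.94 for Ddx3y to 1.35 for Eif2s3y. At 24 months this shift runs with the T1 and T2 labels, and the 2 cannot be told apart in any result at that age.

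The MPP4 and MPP3 steps differed in 2449 of the 11897 genes (20.6%, limma, Benjamini-Hochberg adjusted p below 0.05). The difference was higher in 1925 genes (16.2%) and lower in 524 (4.4%), and 706 of the called genes differed by at least 2-fold. Within MPP4, 7225 genes were called (60.7%), with T2 above T1 in 6479 (54.5%) and below it in 746 (6.27%). Within MPP3, 5361 genes were called (45.1%), with T2 above T1 in 3808 (32%) and below it in 1553 (13.1%). Both steps were called in 3746 genes, and 3463 of these moved the same way in both cell types. Across genes, which are not independent replicates and are measured in the same libraries, the 2 steps correlated at r = 0.62.

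The excess of higher differences depended on the scaling between libraries. The median difference of steps over all genes was 0.22, from medians of 0.42 in MPP4 and 0.18 in MPP3. After median-ratio rescaling it was 0.01, a shift of 0.21, and 866 genes (7.28%) were called higher and 1125 (9.46%) lower. Higher calls made up 78.6% of all calls before rescaling and 43.5% after it. A total of 1382 genes were called in the same direction under both scalings. A difference close to 0.22 is therefore near the middle of all genes, and the counts after rescaling are given with each gene group. Low genes raise a further limit: 172 of the tested genes reached 1 TPM in no MPP4 library and 127 in no MPP3 library, so that their difference is in effect the step of the other cell type. Over the 11598 genes that reached it in both cell types, 1848 were higher and 482 lower. This split, chosen after the data were seen, is given for the lists it touches most. Without the third MPP3 T1 library the lower calls dropped from 524 to 344 and the higher ones to 1336.

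**Figure D1:**
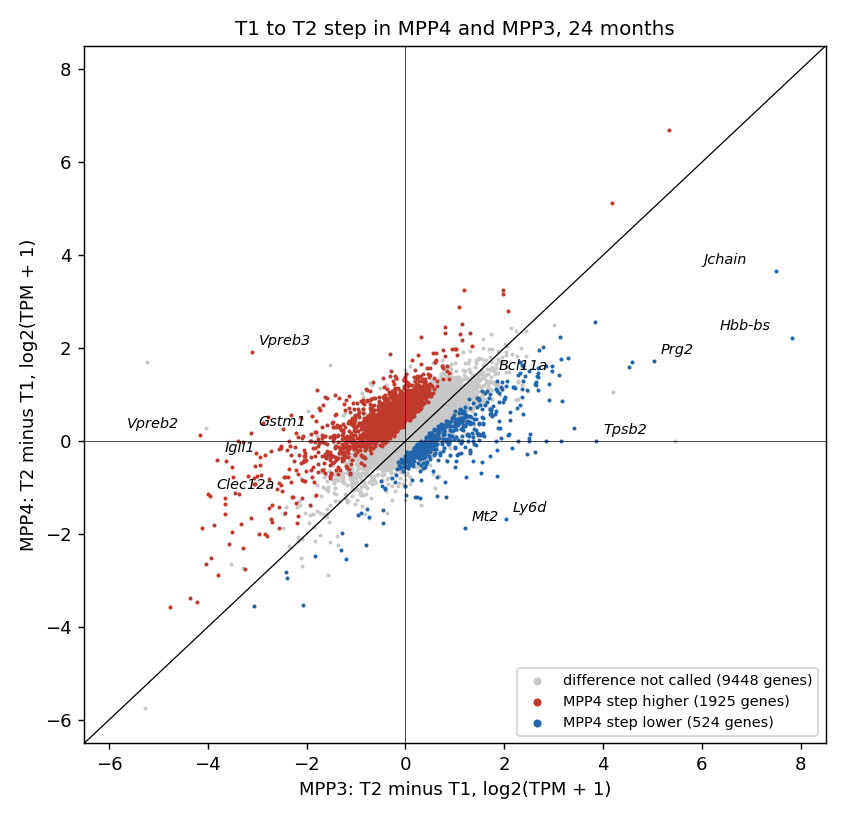
Each point is 1 of the 11897 genes, with the T2 minus T1 step in MPP3 on the horizontal axis and in MPP4 on the vertical axis, both in log2(TPM + 1). Red genes (1925) had a higher and blue genes (524) a lower MPP4 step, grey genes had no called difference, and the diagonal marks equal steps. The 2 red points at the top right are the Y-linked genes Eif2s3y and Ddx3y.

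Bcl11a itself was higher in T2 than in T1 in both cell types. In MPP3 it lay at 8.52, 12.9 and 12.1 TPM in T1 and at 44.4, 39.8 and 33.2 TPM in T2. The MPP4 values were 22.7, 26.5 and 26.2 TPM in T1 and 71.6, 64.3 and 64.2 TPM in T2. T1 and T2 did not overlap in either cell type, and the steps were 1.73 in MPP3 and 1.37 in MPP4 (standard error 0.14 each, limma adjusted p = 2.1e-07 and 5.0e-06). The difference of steps was -0.36 with a standard error of 0.20 and a 95% interval from -0.79 to 0.08, and it was not called (adjusted p = 0.226). After rescaling it was -0.60 and was called (adjusted p = 0.0463). Of the 22 tested genes of a list holding Bcl11a and its known corepressors, 2 were called higher and 1 lower, and 2 in each direction after rescaling. Over all genes the shares were 16.2% higher and 4.4% lower, and 7.28% and 9.46% after rescaling. The 2 higher ones were Ncor1, a scaffold that binds histone deacetylases (0.92, adjusted p = 7.9e-04), and Mta3, a subunit of the NuRD complex (0.74, adjusted p = 0.00245).

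Among the named genes, the 3 highest differences of steps were those of Vpreb3, Vpreb2 and Igll1. Igll1, Vpreb1 and Vpreb2 encode the surrogate light chain, the pair of proteins that takes the place of an immunoglobulin light chain on pre-B cells. Igll1 encodes its constant-like part, and Vpreb1 and Vpreb2 its variable-like part. Vpreb3 is a related gene that is not part of the surrogate light chain and is described with them here. In MPP3 T1 all 4 were abundant, and in MPP3 T2 all 4 were lower. In MPP4 they were low in T1 already. In GENCODE vM21 (GRCm38) Igll1 lies at chr16:16860671-16863985 and Vpreb1 at chr16:16868403-16870843, Vpreb2 on the same chromosome at chr16:17980428-17981273, and Vpreb3 apart from them at chr10:75943057-75949657. All 4 are annotated as protein-coding.

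Because these genes moved together in MPP3, 150 bases before the RefSeq transcription start are shown for Igll1 and Vpreb3, from RefSeq on GRCm38.p6. The first reads on the minus strand at chr16:16863986-16864135 and the second on the plus strand at chr10:75948150-75948299. The Vpreb3 window lies inside the GENCODE span of the gene: it precedes the start of the shorter GENCODE transcript and falls in an intron of the longer one, which starts further upstream. Capitals mark the E-box CANNTG, the letters bound by basic helix-loop-helix factors such as the E proteins; the pattern reads the same on both strands, and overlapping matches appear as 1 run.
Igll1: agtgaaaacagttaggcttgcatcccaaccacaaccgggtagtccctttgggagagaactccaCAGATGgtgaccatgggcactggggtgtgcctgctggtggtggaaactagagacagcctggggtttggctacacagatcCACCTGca
Vpreb3: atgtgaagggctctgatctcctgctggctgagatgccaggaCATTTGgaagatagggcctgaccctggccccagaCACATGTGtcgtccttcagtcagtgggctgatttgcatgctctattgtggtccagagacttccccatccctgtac
Igll1 held 2 matches and Vpreb3 held 3, and neither window held CCCNNGGG. Of 32851 RefSeq promoters, 47.7% held CANNTG at least once in the same 150 bases and 15.3% held it 2 or more times. CCCNNGGG was held by 7.72%. The windows of the other 2 genes overlap annotated exons and are not shown.

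Vpreb3 lay at 144, 155 and 144 TPM in MPP3 T1 and at 15.5, 17.1 and 15.9 TPM in MPP3 T2. In MPP4 it was 0.592 and 0.166 TPM in 2 of the T1 libraries and listed at 0 in the other, against 3.89, 6.11 and 1.83 TPM in T2. The steps ran in opposite directions, 1.91 in MPP4 and -3.11 in MPP3, and the difference was 5.02 (standard error 0.36, adjusted p = 8.6e-07). No T1 library overlapped a T2 library of the same cell type. Igll1 fell in MPP3 from 231, 213 and 230 TPM to 14.3, 15.5 and 15.3 TPM. In MPP4 it lay at 1.004, 2.15 and 2.29 TPM in T1 and at 0.408, 1.31 and 1.80 TPM in T2, with overlapping ranges, and the difference of steps was 3.42 (adjusted p = 5.9e-06). Vpreb2 fell in MPP3 from 41.2, 42.7 and 35.0 TPM to 1.18, 2.05 and 0.731 TPM, and no MPP4 library exceeded 1.998 TPM (difference 4.29, adjusted p = 2.6e-05). Vpreb1 was the member that fell in both, from 93.9 to 100 TPM down to 11.3 to 12.4 TPM in MPP3 and from 7.30 to 10.6 TPM down to 4.19 to 5.32 TPM in MPP4. Its difference of steps was 2.20 (adjusted p = 2.6e-06). The difference of all 4 genes thus rested mainly on the fall in MPP3.

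Other early B-lineage genes were split. Of 13 tested B-lineage genes 7 were called higher and 3 lower, against 16.2% and 4.4% over all genes. The median difference was 0.90 against 0.22 over all genes. After rescaling the counts were again 7 and 3, against 7.28% and 9.46%. Ebf1, Ms4a1 and Pou2af1 are among 4 members that reached 1 TPM in no MPP4 library, and over the other 9 members 5 were higher and 1 lower. Besides the surrogate light chain genes and Vpreb3, the higher genes included the adaptor Blnk (1.03, adjusted p = 0.00866). Ebf1, a factor that commits cells to the B lineage, was also called higher (1.78, adjusted p = 2.4e-04). Ebf1 lay at 4.12 to 5.37 TPM in MPP3 T1 and at 0.281 to 0.449 TPM in MPP3 T2, while no MPP4 library exceeded 0.519 TPM. It was tested only because of the MPP3 T1 libraries, so its difference restates their level. The 3 lower genes are associated with mature B cells. They were Fcrla (-3.13), Ms4a1, which encodes CD20 (-1.88), and the coactivator Pou2af1 (-1.27). Fcrla was at 8.74 to 12.2 TPM in MPP3 T2 and at 1.29 TPM or below in the other 9 libraries. Its MPP4 step of 0.29 was not called, so its difference mainly restates the MPP3 T2 level (MPP3 step 3.42). The summed level of the B-lineage list went from 623 to 706 TPM in MPP3 T1 to 178 to 185 TPM in MPP3 T2, and lay at 118 to 144 TPM over the 6 MPP4 libraries. In bulk libraries, fewer cells of a type and less RNA per cell cannot be told apart, here or for the groups that follow.

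Lymphoid priming genes, the programme that distinguishes MPP4, leaned the same way on the deposited scale. Of 19 tested, 9 were higher and 1 lower (median 0.52), against 16.2% and 4.4% over all genes. After rescaling 4 were higher and 3 lower, against 7.28% and 9.46%. Rag2, a subunit of the recombinase that assembles antigen receptor genes, fell in MPP3 from 3.29 to 4.59 TPM to 0.742 to 0.859 TPM and lay at 4.04 to 5.07 TPM in MPP4 T1 and 4.06 to 7.90 TPM in MPP4 T2. Its difference of steps was 1.71 (adjusted p = 8.3e-04). Dntt fell in MPP3 by 0.67 and its MPP4 step of 0.16 was not called, for a difference of 0.83 (adjusted p = 5.5e-04). The chromatin organiser Satb1 (0.69), the lymphoid factor Ikzf1 (0.70) and the interleukin-7 receptor gene Il7r (1.14) were also higher. Flt3 rose in both cell types, by 0.79 in MPP4 and 0.47 in MPP3, and its difference of 0.32 was not called (95% interval 0.05 to 0.60, adjusted p = 0.0856). The gene called lower was the costimulatory receptor Cd27 (-0.63).

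In the granulocyte programme, the early neutrophil genes, 15 of 23 tested genes fell in MPP3 and 1 rose, against 13.1% falling and 32% rising over all genes. In MPP4, 10 fell and 5 rose, against 6.27% and 54.5%. Of these 23 primary granule and neutrophil priming genes, 14 were higher and none lower (median 0.72), against 16.2% and 4.4% over all genes. After rescaling 11 were higher and 1 lower, against 7.28% and 9.46%. The median step of the list was -1.05 in MPP3 and -0.28 in MPP4. Clec12a, an inhibitory lectin of myeloid cells at chr6:129342691-129365303, lay at 743, 678 and 722 TPM in MPP3 T1 and at 53.8, 36.9 and 45.4 TPM in MPP3 T2. Its MPP4 values were 233, 231 and 227 TPM in T1 and 101, 104 and 96.3 TPM in T2. It fell in both cell types without overlap, by 3.96 in MPP3 and 1.19 in MPP4, and the difference was 2.77 (standard error 0.15, adjusted p = 2.6e-08). Elane fell from 3900, 2694 and 3425 TPM to 228, 316 and 334 TPM in MPP3, and from 57.4, 48.4 and 50.2 TPM to 15.8, 11.4 and 10.8 TPM in MPP4, a difference of 1.55 (adjusted p = 6.9e-04). Hp, haptoglobin, fell by 4.03 in MPP3 and 2.63 in MPP4 (difference 1.40, adjusted p = 8.9e-04). Mpo, the myeloperoxidase gene of the same granules, ran the other way within each cell type. It rose by 0.53 in MPP3 and 0.81 in MPP4, and its difference of 0.29 was not called (adjusted p = 0.213).

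**Figure D2:**
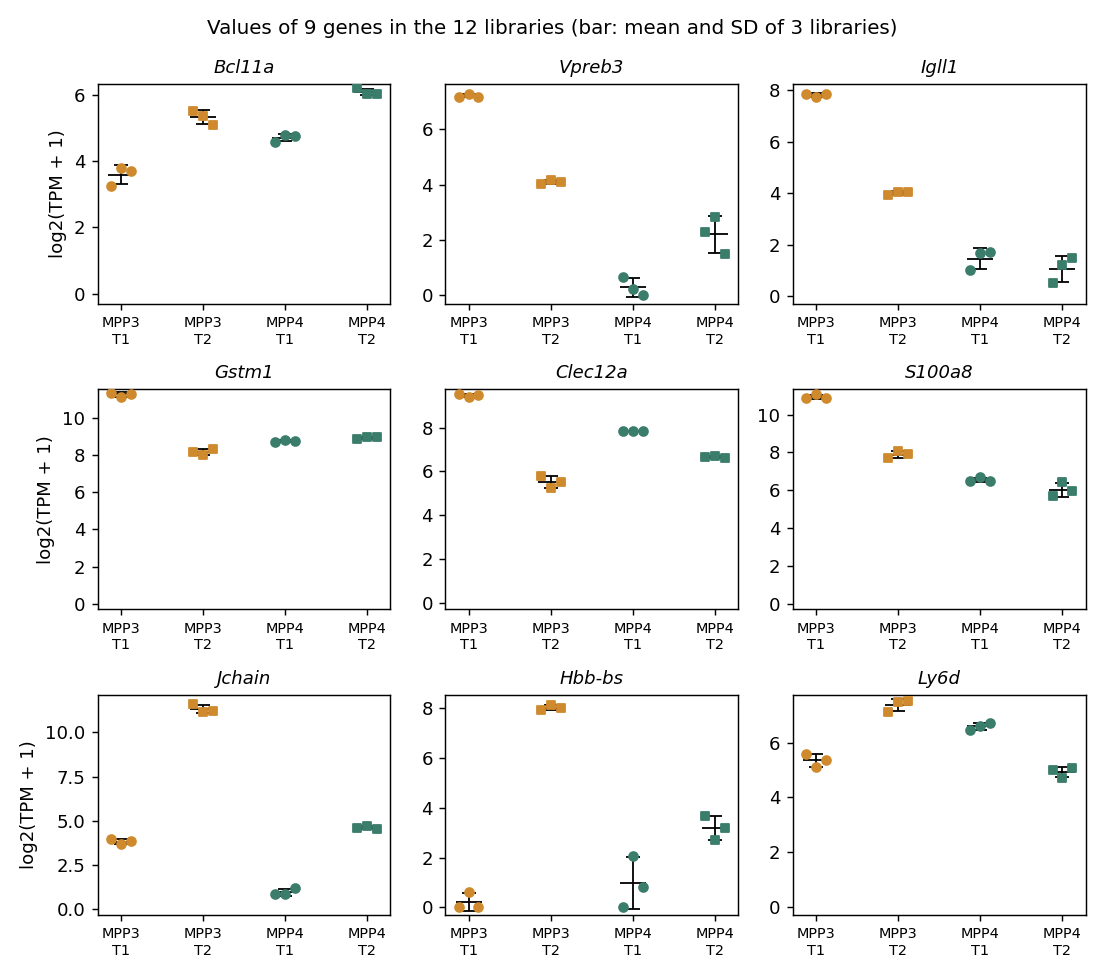
Points are log2(TPM + 1) in single libraries for 9 genes, orange for MPP3 and green for MPP4, circles for T1 and squares for T2, with the mean and SD of 3 libraries. Igll1, Gstm1 and S100a8 drop steeply in MPP3 and little or not at all in MPP4, Clec12a drops in both and further in MPP3, Jchain and Hbb-bs climb most in MPP3, and Vpreb3 and Ly6d move in opposite directions.

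Genes of mature neutrophils did not move as one group. Of 13 tested, 3 were higher and 5 lower, against 16.2% and 4.4% over all genes. After rescaling 3 were higher and 6 lower, against 7.28% and 9.46%. S100a8, a subunit of the calcium-binding protein calprotectin, fell in MPP3 from 1846, 2150 and 1882 TPM to 206, 264 and 237 TPM. In MPP4 it fell from 88.2, 101 and 88.8 TPM to 50.7, 83.9 and 60.2 TPM, and the difference was 2.52 (adjusted p = 3.1e-06). Its partner S100a9 (1.68) and the surface protein Cd177 (2.22) were also higher. Cd177 reached 1 TPM in no MPP4 library, so its difference is in effect its MPP3 step of -2.33. Over the other 12 members 2 were higher and 5 lower. The lower genes were Retnlg, Ngp, Pglyrp1, Mmp8 and Camp. Pglyrp1, a peptidoglycan-binding granule protein, rose in MPP3 from 3.29 to 3.77 TPM to 60.8 to 63.7 TPM and in MPP4 from 9.002 to 11.01 TPM to 62.6 to 64.4 TPM, so that the T2 ranges of the cell types overlapped (difference -1.27, adjusted p = 4.7e-05). Ngp, a secondary granule protein, rose by 3.12 in MPP3 and 1.43 in MPP4 (difference -1.69, adjusted p = 1.5e-04).

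Monocyte and macrophage genes were called higher in 10 of 22 cases and lower in 4 (median 0.42), against 16.2% and 4.4% over all genes. The counts were 7 and 6 after rescaling, against 7.28% and 9.46%. Tyrobp, an adaptor of activating myeloid receptors, fell in MPP3 from 551 to 607 TPM to 335 to 401 TPM and rose in MPP4 from 195 to 224 TPM to 271 to 304 TPM. Its difference of steps was 1.11 (adjusted p = 3.8e-05), and after rescaling the MPP4 step was 0.03 and no longer called. The lysozyme gene Lyz2 had a difference of 0.69 (adjusted p = 0.00131). The complement gene C1qb, typical of tissue macrophages, rose in both, from 1.70 to 1.86 TPM to 18.1 to 28.3 TPM in MPP3 and from 0.905 to 1.74 TPM to 6.09 to 7.79 TPM in MPP4. Its difference was -1.37 (adjusted p = 0.00238), and C1qc (-1.49) and the mannose receptor Mrc1 (-1.05) were lower with it.

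Several of the largest differences belonged to genes of no list. Gstm1, a glutathione S-transferase at chr3:108012255-108017973, had the smallest p of the named genes. It lay at 2643, 2266 and 2548 TPM in MPP3 T1 and at 283, 255 and 318 TPM in MPP3 T2, against 413, 449 and 442 TPM in MPP4 T1 and 473, 501 and 503 TPM in MPP4 T2. The MPP3 step was -3.12, the MPP4 step of 0.18 was not called, and the difference was 3.30 (standard error 0.12, adjusted p = 4.1e-10). Serpine2, a secreted protease inhibitor, fell in MPP3 from 74.2, 61.4 and 66.4 TPM to 5.08, 4.54 and 3.96 TPM and lay at 1.44 to 3.11 TPM in MPP4 (difference 3.20, adjusted p = 2.8e-07). Saa3, an acute phase protein, fell in MPP3 from 27.1 to 32.4 TPM to 0.938 to 2.72 TPM, and no MPP4 library exceeded 1.04 TPM. Its difference of 3.39 (adjusted p = 3.8e-05) thus rested mainly on the fall in MPP3. The same form, a fall in MPP3 with a small or no called step in MPP4, was shared by the natural killer receptor ligand Clec2i (3.30), Gapt (3.28), the intestinal glucosidase gene Mgam (3.27), the inhibitory receptor Siglece (2.96) and the lymphocyte receptor Slamf6 (2.88).

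Genes of antibody-secreting cells held some of the lowest differences. Of 18 tested plasma cell and secretory pathway genes 2 were higher and 10 lower (median -0.57), against 16.2% and 4.4% over all genes. After rescaling 0 were higher and 13 lower, against 7.28% and 9.46%. Irf4 and Prdm1, both lower, reached 1 TPM in no MPP4 library, and over the other 16 members 2 were higher and 8 lower. Jchain, the chain that joins secreted IgA and IgM, at chr5:88519809-88527891, lay at 14.5, 11.9 and 13.3 TPM in MPP3 T1 and at 3080, 2259 and 2392 TPM in MPP3 T2. In MPP4 it lay at 0.821, 0.800 and 1.29 TPM in T1 and at 23.2, 25.6 and 22.3 TPM in T2. It rose in both without overlap, by 7.49 in MPP3 and 3.66 in MPP4, and the difference was -3.84 (standard error 0.19, adjusted p = 1.2e-08). Mzb1, a chaperone of immunoglobulin assembly, rose in MPP3 from 20.6, 20.4 and 15.7 TPM to 83.7, 86.9 and 76.6 TPM and lay at 0.710 to 1.41 TPM in MPP4 (difference -1.95, adjusted p = 3.4e-05).

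The other lower members included defining genes of plasma cells at low levels. Tnfrsf17, the plasma cell survival receptor, was at 4.51 to 5.75 TPM in MPP3 T2 and at 1.01 TPM or below elsewhere (-2.45). Its MPP4 step of 0.06 was not called, so its difference is in effect the MPP3 step of 2.51. Derl3, of the endoplasmic reticulum, had a difference of -2.31. The plasma cell regulator Prdm1 lay at 1.41 to 1.79 TPM in MPP3 T2 and at 0.339 TPM or below in all other libraries. It was tested only because of the MPP3 T2 libraries, so its difference restates their level. Sdc1, the plasma cell surface proteoglycan, rose in both cell types and reached 3.77 to 4.62 TPM in MPP3 T2 and 3.80 to 4.94 TPM in MPP4 T2 (-1.04). Xbp1, the secretory pathway factor, was 1 of the 2 higher members. It rose in MPP4 from 68.8 to 79.3 TPM to 103 to 122 TPM, its MPP3 step of -0.02 was not called, and the difference was 0.65 (adjusted p = 0.00813). The summed level of the list was 3053 to 3108 TPM in MPP3 T1, 5599 to 6413 TPM in MPP3 T2 and 2431 to 2542 TPM over the 6 MPP4 libraries. The part of plasma cells in these differences was not tested.

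Mast cell, basophil and eosinophil genes were lower in 12 of 21 cases and higher in 3 (median -0.84). Over all genes 4.4% were lower and 16.2% higher. After rescaling 13 were lower and 3 higher, against 9.46% and 7.28% over all genes. Most of the lower calls rest on the MPP3 step. Of the 21 members 11 reached 1 TPM in no MPP4 library, 8 of them called lower, and over the other 10 members 3 were higher and 4 lower. Of the lower members 7 were listed at 0 in all 6 MPP4 libraries, so their difference of steps is the MPP3 step alone. They were the proteases Cma1, Mcpt2, Mcpt4, Prss34 and Tpsb2 and the IgE receptor chains Fcer1a and Ms4a2. Over all tested genes, 21 were listed at 0 in every MPP4 library. Cma1, mast cell chymase, rose in MPP3 from 24.7, 17.0 and 18.4 TPM to 209, 168 and 176 TPM (difference -3.15, adjusted p = 2.8e-07). Tpsb2, a tryptase, rose in MPP3 from 2.74, 0.272 and 1.45 TPM to 29.2, 25.6 and 42.9 TPM (-3.85, adjusted p = 3.1e-05). Prg2, eosinophil major basic protein, rose in both. It lay at 0.829, 0.481 and 0.117 TPM in MPP3 T1 and 42.4, 48.0 and 47.6 TPM in MPP3 T2, and was listed at 0 in MPP4 T1 and at 1.48, 2.70 and 2.93 TPM in MPP4 T2 (-3.30, adjusted p = 3.2e-06). With all 30 libraries in the fit the Prg2 difference was not called (adjusted p = 0.245).

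One gene of that list that was abundant in MPP3 T1 did not follow the same path. Cpa3, the mast cell carboxypeptidase, fell in both cell types, from 1890 to 2151 TPM to 347 to 418 TPM in MPP3 and from 113 to 123 TPM to 14.9 to 17.1 TPM in MPP4. Its difference of steps was -0.40 (adjusted p = 0.0343). The summed level of the list was 5679 to 6002 TPM in MPP3 T1, where Cpa3 weighs on it, and 3815 to 4958 TPM in MPP3 T2. The median step over the list members in MPP3 was nevertheless 0.53. In MPP4 the sums were 2524 to 2749 TPM in T1 and 2024 to 2222 TPM in T2, and Cpa3 was a small part of them. Mcpt8, a basophil protease, fell in both by 0.80 and 1.14, and its difference of -0.34 was not called (adjusted p = 0.140).

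Erythroid genes were lower in 9 of 20 cases and higher in 1 (median -0.89), against 4.4% and 16.2% over all genes. After rescaling 8 were lower and 1 higher, against 9.46% and 7.28%. Of the 20 members 7 reached 1 TPM in no MPP4 library, 3 of them called lower and 1 higher, and over the other 13 members 6 were lower and none higher. Ermap, a red cell membrane protein, was listed at 0 in all 6 MPP4 libraries, so its call is the MPP3 step alone. Hbb-bs, an adult beta globin, had the lowest difference of the named genes. It was listed at 0 in 2 MPP3 T1 libraries and at 0.538 TPM in the other, and lay at 244, 280 and 256 TPM in MPP3 T2. In MPP4 it lay at 0, 3.21 and 0.778 TPM in T1 and at 11.6, 5.61 and 8.17 TPM in T2. The difference was -5.59 (standard error 0.59, adjusted p = 9.8e-05). Hbb-bt and Hbb-b2 had differences of -2.89 and -2.94. The beta globin copies are near-identical, and the sources used here do not give how reads were split between them. The alpha globins show how far such a split can go: Hba-a1 was at 0.163, 583 and 551 TPM in the 3 MPP3 T2 libraries and Hba-a2 at 368, 3.70 and 2.02 TPM, and neither difference was called. The erythroid regulator Klf1 (-0.57, adjusted p = 0.217) was not called and stayed at 5.71 TPM or below in all 12 libraries. The part of red cell RNA in these differences was not tested.

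**Figure D3:**
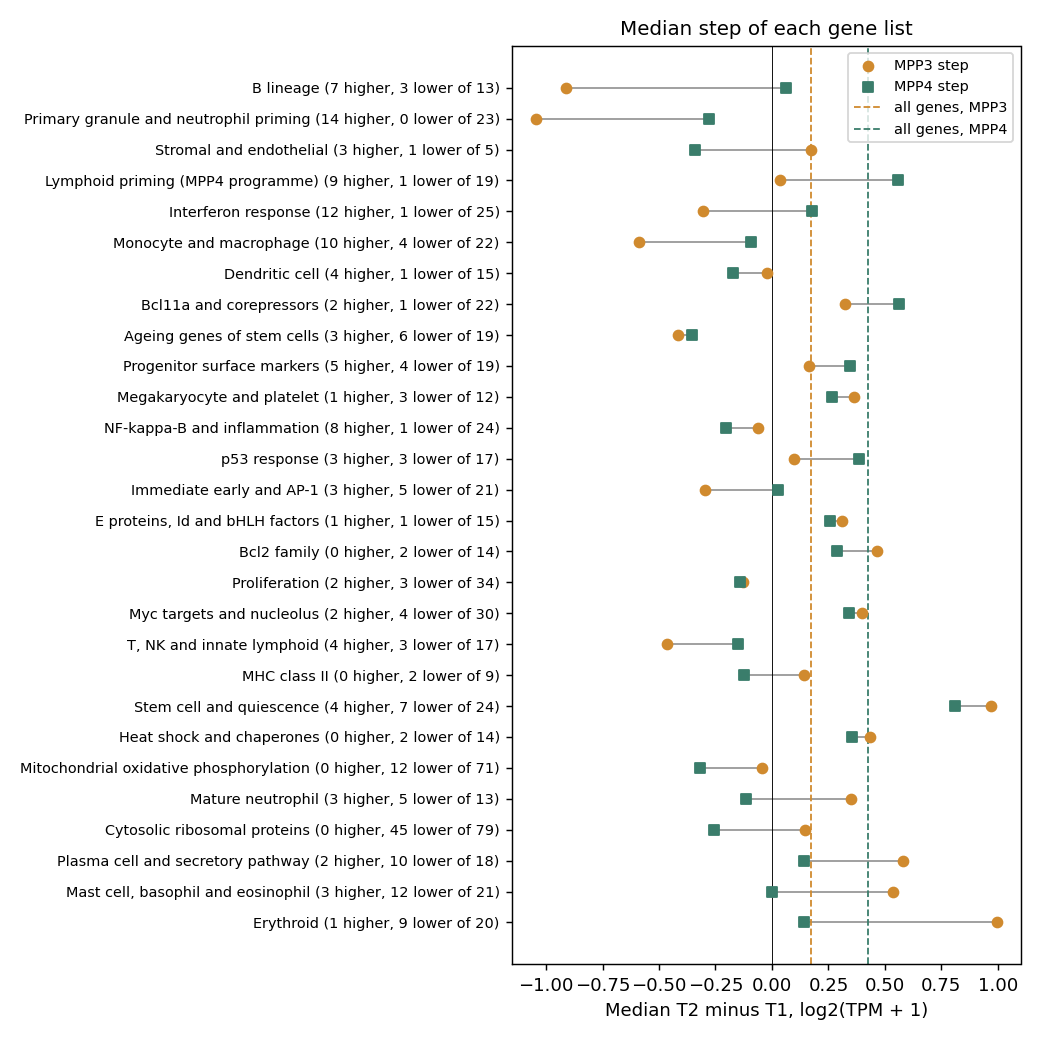
For 28 gene lists the median T2 minus T1 step over tested members is shown in log2(TPM + 1), orange for MPP3 and green for MPP4, with the number of members called higher or lower in the difference beside the name. Dashed lines mark the medians over all genes, 0.18 for MPP3 and 0.42 for MPP4. The B lineage and primary granule lists lie lowest in MPP3, and the erythroid list lies highest there.

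Steps in opposite directions, both called and with the difference called, were seen in 249 genes that rose in MPP4 and fell in MPP3 (2.09%) and in 34 that fell in MPP4 and rose in MPP3 (0.286%). After rescaling these counts were 35 and 96, and without the first MPP3 T2 library the second count was 55 in place of 34. Of the 12 such genes with the largest opposed steps, ranked by the smaller of the pair and 6 in each direction, 7 kept both opposed steps after rescaling. Ly6d, a surface protein of lymphoid progenitors at chr15:74762056-74763620, lay at 46.8, 33.6 and 40.4 TPM in MPP3 T1 and at 138, 178 and 186 TPM in MPP3 T2. In MPP4 it went the other way, from 88.6, 95.7 and 105 TPM to 30.9, 25.1 and 32.4 TPM. The MPP3 step was 2.03, the MPP4 step -1.68 and the difference -3.71 (standard error 0.20, adjusted p = 2.6e-08). The metallothionein Mt2 rose in MPP3 from 11.6, 10.5 and 7.56 TPM to 18.1, 29.1 and 24.8 TPM, and in MPP4 it was at 1.80, 4.33 and 2.35 TPM in T1 and listed at 0 in all T2 libraries (-3.08, adjusted p = 2.0e-05).

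Among genes that rose in MPP4 and fell in MPP3, besides Vpreb3, Bfsp2, a lens filament protein, lay at 10.1, 11.2 and 10.4 TPM in MPP3 T1 and 2.19, 2.05 and 2.92 TPM in MPP3 T2. In MPP4 it lay at 3.65, 3.29 and 4.76 TPM in T1 and at 7.69, 11.8 and 9.05 TPM in T2 (2.87, adjusted p = 2.5e-06). Cfp, the complement regulator properdin, and Sqrdl, a mitochondrial sulfide oxidase, had opposed steps with differences of 2.11 and 2.58. For the decoy receptor Il1r2 (2.51) and for Rnase12 (2.07) the MPP4 step was no longer called after rescaling.

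Cytosolic ribosomal protein genes were lower in 45 of 79 cases and higher in none (median difference -0.43), against 4.4% and 16.2% over all genes. After rescaling 62 were lower, against 9.46% over all genes. They moved in opposite directions on the deposited scale, with a median step of 0.15 in MPP3 and -0.25 in MPP4, but after rescaling both medians were negative, -0.06 and -0.69. Rps20 lay at 896, 950 and 834 TPM in MPP3 T1 and at 1203, 1246 and 1124 TPM in MPP3 T2. Its MPP4 values were 1306, 1102 and 1120 TPM in T1 and 760, 823 and 935 TPM in T2. Its difference was -0.90 (adjusted p = 3.0e-04), with no overlap of T1 and T2 in either cell type. Rpl19 (-0.59, adjusted p = 5.6e-04) and Rps27a (-0.68, adjusted p = 7.0e-04) differed alike. The summed level of the list was 129700 to 141200 TPM in MPP3 T1 and 132300 to 159500 TPM in MPP3 T2, which overlap. In MPP4 the sums did not overlap, with 130500 to 141900 TPM in T1 and 112000 to 117200 TPM in T2. Of 71 genes of mitochondrial oxidative phosphorylation 12 were lower and none higher (median -0.21), and 38 were lower after rescaling. These counts are to be read against the same shares over all genes.

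Interferon response genes were higher in 12 of 25 cases and lower in 1 (median 0.46), against 16.2% and 4.4% over all genes. After rescaling 7 were higher and 2 lower, against 7.28% and 9.46%. Ifit1, an RNA-binding antiviral protein, lay at 6.15, 5.01 and 6.55 TPM in MPP3 T1 and at 3.60, 5.16 and 6.40 TPM in MPP3 T2, with overlapping values. In MPP4 it rose from 9.36, 9.57 and 7.49 TPM to 18.7, 21.4 and 21.0 TPM, and the difference was 1.34 (adjusted p = 0.00165). Usp18, which removes ISG15 from proteins and dampens interferon signalling, fell in MPP3 from 34.1, 26.4 and 28.2 TPM to 18.1, 17.3 and 19.0 TPM. In MPP4 it rose from 36.3, 34.4 and 36.2 TPM to 50.1, 51.5 and 43.0 TPM (difference 1.09, adjusted p = 3.4e-04), although its MPP4 step was -0.01 and not called after rescaling. Oasl2 (adjusted p = 0.0019) and Stat2, a transducer of the type I interferon receptor (0.99, adjusted p = 0.00728), were also higher. Isg15 rose in both, by 1.27 in MPP4 and 1.47 in MPP3, with a difference of -0.21 that was not called (adjusted p = 0.677). Of 24 NF-kappa-B and inflammation genes, 8 were higher and 1 lower, with a median of 0.16. After rescaling 3 were higher and 2 lower, with a median of -0.05. Both counts are to be read against the same shares over all genes. The activation antigen Cd69 fell in both, by 2.22 in MPP3 and 1.34 in MPP4 (difference 0.88, adjusted p = 4.7e-04), and the chemokine Cxcl2 was the lower member (-1.18, adjusted p = 0.00109).

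Stem cell and quiescence genes rose in 19 of 24 cases in MPP3 and in 17 in MPP4, and 3 fell in each. Over all genes 32% rose in MPP3 and 54.5% in MPP4. Their median steps of 0.97 and 0.81 were 0.80 and 0.45 after rescaling. Cdkn1a, Ly6a and Nr4a1 were the members that fell, in both cell types. The summed level of the list nevertheless fell without overlap, from 1501 to 1581 TPM to 1300 to 1398 TPM in MPP3. In MPP4 the sum fell from 1986 to 2214 TPM to 1475 to 1649 TPM. The difference of steps was higher in 4 and lower in 7 (median -0.13), against 16.2% and 4.4% over all genes. After rescaling it was higher in 1 and lower in 9, against 7.28% and 9.46%. Esam, an adhesion molecule of stem cells, rose from 1.70, 2.28 and 2.85 TPM to 13.4, 16.0 and 16.2 TPM in MPP3 and from 1.22, 1.51 and 1.71 TPM to 3.91, 2.79 and 3.14 TPM in MPP4 (-1.53, adjusted p = 6.3e-04). Cd34, a surface sialomucin that is not on this list, rose from 92.5 to 106 TPM to 370 to 409 TPM in MPP3. In MPP4 Cd34 rose from 238 to 271 TPM to 512 to 603 TPM (-0.77, adjusted p = 7.7e-04). Procr, the protein C receptor, rose by 2.38 in MPP3 and 1.61 in MPP4. Its difference of -0.77 (adjusted p = 0.0222) was no longer called without any of 5 single libraries, with an adjusted p of up to 0.0585. The higher members included Txnip, an inhibitor of thioredoxin (0.81, adjusted p = 0.00107), and the receptor Kit (0.55, adjusted p = 0.0364).

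Many genes moved alike in both cell types. In 2796 genes both steps were called higher and in 293 both lower, with no call on the difference. The examples here were chosen after their values were seen. Trat1, which encodes a T cell receptor adaptor, fell in MPP3 from 349, 344 and 396 TPM to 7.47, 8.15 and 9.86 TPM and in MPP4 from 106, 122 and 123 TPM to 0.431, 1.47 and 2.02 TPM. The difference of steps was -0.47 with a 95% interval from -1.09 to 0.14. Hlf, a stem cell factor, rose by 2.02 in MPP3 and 2.09 in MPP4, and the interval of its difference was -0.43 to 0.58. Emcn, the sialomucin endomucin, rose by 3.01 in MPP3 and 2.49 in MPP4, with an interval from -1.06 to 0.02, but after rescaling its difference was -0.80 and was called (adjusted p = 0.0472). These intervals leave room for differences of the sizes given.

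The remaining lists are given by their counts, to be read against 16.2% higher and 4.4% lower over all genes, and 7.28% and 9.46% after rescaling. Several of them had more lower calls after rescaling. Of 34 proliferation genes 2 were higher and 3 lower, and 1 and 10 after rescaling. Of 30 Myc targets and nucleolar genes 2 were higher and 4 lower, and 0 and 11 after rescaling. Of 14 heat shock genes 0 were higher and 2 lower, and 0 and 5 after rescaling. Of 19 progenitor surface markers 5 were higher and 4 lower, and 1 and 7 after rescaling. Dendritic cell genes had 4 higher and 1 lower of 15, and 3 and 4 after rescaling. T, NK and innate lymphoid genes had 4 higher and 3 lower of 17, and 4 and 5 after rescaling. Immediate early genes had 3 higher and 5 lower of 21, and 1 and 5 after rescaling. Genes known to change in ageing stem cells had 3 higher and 6 lower of 19, and 4 and 6 after rescaling. MHC class II genes had 0 higher and 2 lower of 9, and 0 and 3 after rescaling. Megakaryocyte genes had 1 higher and 3 lower of 12, and 0 and 4 after rescaling. The counts were the same under both scalings for 14 Bcl2 family genes, with 0 higher and 2 lower, and for 17 p53 response genes, with 3 in each direction.

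Of 5 tested stromal and endothelial genes 3 were higher and 1 lower, and 2 in each direction after rescaling. They were led by Spp1, osteopontin, which fell from 138 to 171 TPM to 12.5 to 14.2 TPM in MPP3 and from 40.9 to 42.0 TPM to 16.3 to 19.95 TPM in MPP4 (2.22, adjusted p = 4.2e-07). Of 15 E protein, Id and basic helix-loop-helix genes 1 was higher and 1 lower, and 0 and 4 after rescaling. The lower one on the deposited scale, Id3, an inhibitor of E proteins, fell in MPP4 from 48.4 to 53.6 TPM to 23.9 to 29.4 TPM, and its MPP3 step of -0.01 was not called (-0.96, adjusted p = 0.00293).

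The same difference of steps at 3 months was set against that at 24 months in a fit over 24 WTiMOS libraries, 3 in each of 8 groups. The ages lie in separate tables, so age and table cannot be told apart. The Y-linked genes also ran otherwise at 3 months. Eif2s3y averaged 52.9 TPM in MPP3 T1 and 30.1 TPM in MPP3 T2 there, and was listed at 0 in MPP4 T1 against 75.2 TPM in MPP4 T2. Y-linked transcripts were thus at or near 0 in T1 of both cell types at 24 months but present in MPP3 T1 at 3 months. The difference of steps of Eif2s3y differed between ages by -5.75 (adjusted p = 1.9e-11) and that of Ddx3y by -4.34 (adjusted p = 3.4e-10). The part of this shift in the differences between ages was not tested. Of 12762 genes tested, 8121 (63.6%) differed between ages, 7346 higher (57.6%) and 775 lower (6.07%) at 24 months. Much of this was a shift of all genes. The median difference between ages was 1.04 on the deposited scale and 0.09 after rescaling, where 3740 genes were called, 1763 higher and 1977 lower. A total of 2528 genes were called in the same direction under both scalings.

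The surrogate light chain genes and Vpreb3 had high differences of steps at both ages. At 3 months Vpreb3 had a difference of 5.71, Igll1 of 3.61, Vpreb2 of 3.56 and Vpreb1 of 2.83, and none of the 4 was called different between ages on the deposited scale (adjusted p from 0.109 to 0.77). After rescaling the ages were called different for Vpreb3 (-1.51, adjusted p = 0.035) and Vpreb1 (-1.67, adjusted p = 5.5e-04). Igll1 fell at 3 months in MPP3 from 261 ± 52.8 to 43.6 ± 13.8 TPM (SD, n = 3 each). Siglece (3.86 at 3 months) and Tpsb2 (-3.74 at 3 months) were also not called different between ages on that scale, although Siglece was after rescaling (-1.52, adjusted p = 0.013).

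Other leading genes differed between ages under both scalings. Jchain at 3 months lay at 0.815 TPM in MPP3 T1 and 0.147 TPM in MPP3 T2, and at 65.2 and 185 TPM in MPP4. Its difference of steps there was 1.92 against -3.84 at 24 months, and the difference between ages was -5.75 (adjusted p = 4.0e-08). Ly6d at 3 months fell in both cell types, from 80.8 to 10.9 TPM in MPP3 and from 370 to 128 TPM in MPP4 on average, and the difference between ages was -4.97 (adjusted p = 3.0e-12). Hbb-bs (-8.75) and Mzb1 (-4.69) also changed sign between ages. Gstm1 averaged 366 TPM in MPP3 T1 and 205 TPM in MPP3 T2 at 3 months, so that its difference there was 0.76 against 3.30 at 24 months (2.54, adjusted p = 5.5e-11). The interferon gene Usp18 had a difference of -2.37 at 3 months and 1.09 at 24 months (3.46, adjusted p = 9.2e-12).

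**Figure D4:**
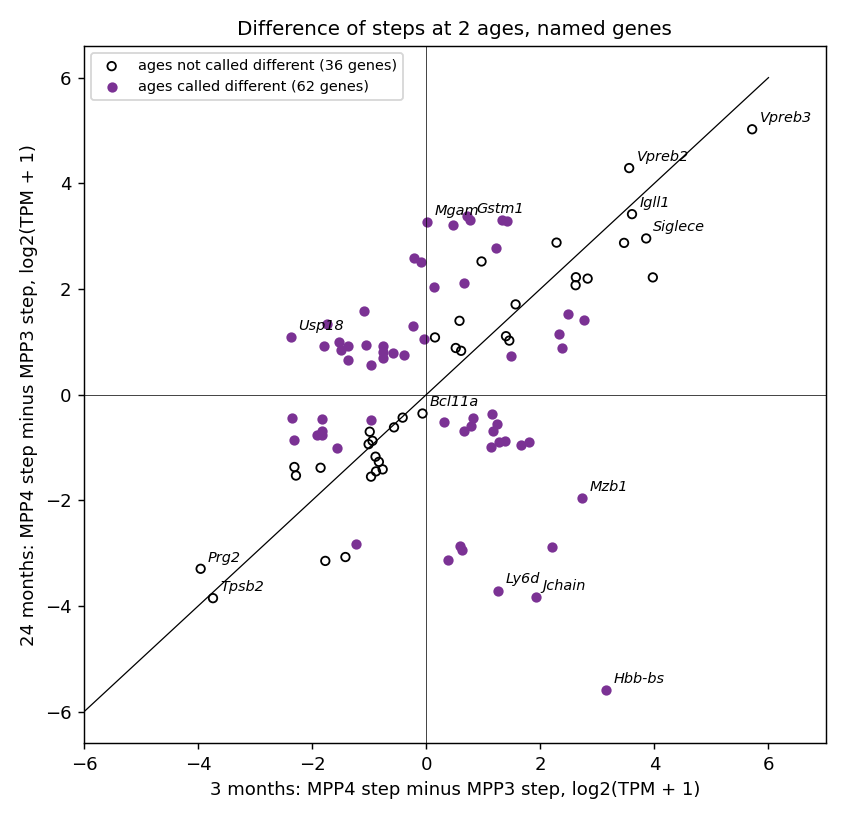
Each point is 1 of the 98 named genes, with its MPP4 minus MPP3 difference of steps at 3 months on the horizontal and at 24 months on the vertical axis, both in log2(TPM + 1). Filled points (62) were called different between ages on the deposited scale and open points (36) were not, and the diagonal marks equal values. The surrogate light chain genes and Vpreb3 lie near the diagonal, and Jchain, Ly6d, Mzb1 and Hbb-bs lie in the lower right.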

How the data were processed

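The authors deposited TPM per gene, 1 table per age, genotype and cell type. The tools listed per the submitters' processing notes are DESeq2, featureCounts, HISAT2 and StringTie, with the build mm10; the sources used here do not give which tool made the TPM. Per the labels' protocols cDNA was made with a low-input kit. The column names placed all columns in their groups, with 0 unmapped.

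With limma 3.58.1 in R 4.3.3, log2(TPM + 1) was modelled as a mean per group over the 12 libraries (8 residual degrees of freedom), with trended and robust moderation. Adjusted p is limma's moderated test with Benjamini-Hochberg adjustment over all genes tested, called at 0.05. The code was tested on simulated data. Genes were named by rule: Bcl11a, up to 12 with the highest and 12 with the lowest called difference and a group mean of 5 TPM or more, up to 6 in each direction with opposed steps, and up to 3 per gene list by p. Predicted and sex-linked genes were left out, and further list members were picked after their values were seen. The genes and lists were chosen with earlier results of these data known. Coordinates are from GENCODE vM21.

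Alternatives were a pseudocount of 0.1, no filter, a minimum of 5 TPM, median-ratio rescaling (factors from 0.867 to 1.25), table weights, all 30 libraries, the spread of each table, removal of GC and length trends, the replicate number as a block, and leaving out each library. Replicate numbers were not taken to pair the libraries: the deviations of same-numbered T1 and T2 libraries correlated at -0.186 to 0.0381, and those of same-numbered MPP3 and MPP4 libraries at -0.0179 to 0.268.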

Additional observations from a re-analysis of the deposited data

Results flagged for a closer look

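The main count, 2449 genes whose MPP4 and MPP3 steps differed, is itself a difference between groups under the same contrast. Singled out among them, by a called difference and steps of opposite sign, were Vpreb3 (5.02), Bfsp2 (2.87), Sqrdl (2.58), Il1r2 (2.51), Cfp (2.11) and Rnase12 (2.07), which rose in MPP4 and fell in MPP3. Ly6d (-3.71), Mt2 (-3.08), the lysosomal protease Lgmn (-1.42), Rps20 (-0.90), the histone gene Hist1h2ag (-0.89) and Rps15a (-0.88) fell in MPP4 and rose in MPP3. After rescaling Il1r2, Rnase12, Lgmn, Hist1h2ag and Rps20 no longer had 2 called steps of opposite sign, and Hist1h2ag lost its call when GC and length trends were removed (adjusted p = 0.108).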

How the results depend on the processing

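The count of 2449 differing genes ranged from 1653 to 2713 over the settings that kept all libraries, and from 1680 to 2824 when single libraries were left out. Median-ratio rescaling, which removes the higher median of MPP4 T2, moved the counts in each direction most: 866 higher, 1125 lower, 3685 genes in the MPP4 step, and 35 and 96 with opposed steps. For the difference between ages it gave 3740 calls, 1763 higher and 1977 lower. With the replicate number as a block, where same-numbered libraries did not all correlate, 1653 genes were called, and 2245 when GC and length trends were removed as well; a loss there comes with fewer residual degrees of freedom. Leaving out 1 library gave 1336 to 2168 higher and 344 to 656 lower calls, and 170 to 316 and 23 to 55 opposed steps. It gave 6177 to 7705 calls in the MPP4 step and 4463 to 5480 in the MPP3 step. Of the genes on any list other than the sex-linked one, each counted once, 177 to 286 were called, against 237 with all libraries. For the ages, leaving out 1 library gave 7759 to 8364 calls, 7026 to 7524 higher and 727 to 840 lower. This leaving-out for the ages was added after the data were seen. Of the 98 named genes none changed sign in any setting. With single libraries left out, 91 kept their side of the threshold each time and 7 lost their call at least once: Bax, H2-Eb1, Itga2b, Mycn, Pmaip1, Procr and Sox6. Over the other settings 78 kept their side, 19 lost their call at least once and Bcl11a gained one. With a pseudocount of 0.1 the difference was -0.07 for Sox6 and -0.16 for Itga2b. TPM carry no depth, and the pseudocount understates the changes of low genes.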

Other observations

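Some lists of other functions held single genes with called differences. Sesn1, a stress-induced regulator of growth signalling, rose in MPP4 from 41.2 to 44.9 TPM to 74.3 to 84.4 TPM, and its MPP3 step of 0.04 was not called (difference 0.84, adjusted p = 0.00122). Cdkn1a, the p21 cell cycle inhibitor, fell in both, from 128 to 136 TPM to 67.1 to 82.4 TPM in MPP3 and from 200 to 217 TPM to 70.8 to 80.2 TPM in MPP4 (-0.68, adjusted p = 0.00245). Selp, P-selectin, which rises in stem cells with age, fell in MPP4 from 13.5 to 16.4 TPM to 5.24 to 6.41 TPM, and its MPP3 step of 0.19 was not called (-1.39, adjusted p = 1.2e-04). Gda, guanine deaminase, fell in MPP3 from 7.71 to 10.2 TPM to 0.817 to 1.10 TPM and stayed at 0.666 TPM or below in MPP4 (2.03, adjusted p = 1.1e-04). The Gda difference is therefore in effect its MPP3 step. With a pseudocount of 0.1 Gda was not called (adjusted p = 0.0593). Gzmb, granzyme B, fell in both, from 87.9 to 94.6 TPM to 18.6 to 23.1 TPM in MPP3 and from 11.2 to 12.7 TPM to at most 0.345 TPM in MPP4 (-1.45, adjusted p = 1.7e-04), and was not called with all 30 libraries in the fit (adjusted p = 0.108).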
